A study of Mus musculus with 23 samples.

Results

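PLX5622 and PLX3397 were compared in the brains of mice whose colony-stimulating factor 1 receptor carries the G793A substitution. Both compounds inhibit this receptor kinase, CSF1R, and were given in chow for 14 days at different doses, PLX5622 at 1200 mg/kg and PLX3397 at 290 mg/kg, so no value below rests on a matched dose. The libraries were chosen by their titles, 4 from G793A mice on PLX5622 and 4 from G793A mice on PLX3397, which makes 8 of the 23 libraries of the series. The other groups served as points of comparison. They were G793A mice on control chow (n = 4), wild-type (WT) mice on PLX5622 (n = 4), WT mice on PLX3397 (n = 4) and WT mice on control chow (n = 3). All mice were C57BL/6J, and the design text asks whether the substitution prevents the effects of the inhibitors. The labels name the tissue only as brain. They give no region, sex, age, zygosity of the substitution or batch. Whether the libraries of a group are separate animals is not stated, and the p-values below then describe only the spread from library to library, which may be technical.

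Microglia, the resident macrophages of the brain, depend on CSF1R signalling for survival, and the cytokines CSF1 and IL-34 are its ligands. PLX3397, also known as pexidartinib, is known to inhibit the related receptor kinases KIT and FLT3 as well, and PLX5622 was developed as a more selective CSF1R inhibitor. A relative of these kinases is the platelet-derived growth factor receptor alpha, PDGFRA. In the adult brain it marks oligodendrocyte precursor cells, whose proliferation and survival it supports, and it is also made by fibroblasts of the vessels and meninges.

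Expression was measured by stranded mRNA sequencing as estimated counts per gene, and 16209 genes were tested. Total counts per library ran from 29.9 to 40.9 M (mega-counts) in G793A mice on PLX5622, from 26.3 to 43.3 M in G793A mice on PLX3397 and from 26.3 to 48.2 M over all libraries. Levels are given in counts-per-million (CPM), which serve to compare a gene between libraries and not one gene with another. In these groups 3 libraries stood apart. Replicate 2 of G793A PLX5622 held transcripts of the cerebellum, with the granule cell gene Cbln3 at 221 CPM, against 0.906 to 1.73 CPM in the other 7 libraries of both groups. The activity-induced gene Npas4 was at 139 CPM in that same library and at 185 and 214 CPM in replicates 2 and 4 of G793A PLX3397, against 8.04 to 16.7 CPM in the other 5. Leaving these 3 out, as is done for some results below, keeps only the other 5 libraries of both groups. They are replicates 1, 3 and 4 of G793A PLX5622 and replicates 1 and 3 of G793A PLX3397. In that fit 1.46% of all genes were higher and 1.74% lower with PLX5622 at an unadjusted p under 0.05. With all libraries these shares were 3.23% and 3.62%, so counts of genes at that level are lower there in general. Libraries also differed in a trend along transcript length, given beside Pdgfra below.

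Pdgfra was the gene that differed between the inhibitors in G793A mice. Its level was 65.0, 58.4, 70.5 and 69.8 CPM in the 4 G793A PLX5622 libraries, against 48.2, 50.7, 47.9 and 35.9 CPM in the 4 G793A PLX3397 libraries. Every PLX5622 library lay above every PLX3397 library, as was so for 2.01% of all genes tested. The means were 65.9 ± 5.59 CPM with PLX5622 and 45.7 ± 6.66 CPM with PLX3397 (SD, n = 4 each). The log2 fold change of PLX5622 over PLX3397 was 0.53 ± 0.08 (SE; 95% interval 0.37 to 0.69), a level of 144% of that with PLX3397, and it passed in edgeR's quasi-likelihood test (Benjamini-Hochberg adjusted p = 0.00899). It was 1 of the 16209 genes tested, or 0.00617%, to pass at an adjusted p under 0.05. At an unadjusted p under 0.05, 6.85% of all genes differed, 3.23% higher and 3.62% lower with PLX5622.

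The other groups place this difference. Pdgfra stood at 62.4, 66.8, 67.1 and 69.1 CPM in the G793A control libraries, a range that overlaps that of PLX5622 and lies wholly above that of PLX3397, as was so for 2.12% of all genes. Against these controls it was at −0.01 (95% interval −0.17 to 0.15) in G793A mice on PLX5622, which did not pass. In G793A mice on PLX3397 it fell by 0.54 ± 0.08 (adjusted p = 0.00678) and was again 1 gene of all tested to pass, or 0.00617%. These comparisons share their control libraries. The fall with PLX3397 no longer passed without replicate 4 of the controls, or with only its compared groups or only the G793A libraries in the fit. It did not pass either in limma on the authors' variance-stabilised values. In WT mice Pdgfra was at 67.4, 68.3, 68.3 and 66.6 CPM with PLX5622, at 56.8, 50.3, 56.6 and 52.6 CPM with PLX3397, and at 63.6, 67.0 and 69.5 CPM on control chow. The WT inhibitor groups did not overlap either, as 1.54% of all genes did not in this direction, with a log2 fold change of PLX5622 over PLX3397 of 0.32 (0.16 to 0.48) that did not pass (adjusted p = 0.491). The difference of differences, G793A minus WT, was 0.20 (95% interval −0.02 to 0.43) and did not pass (adjusted p = 0.9997).

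**Figure D1:**
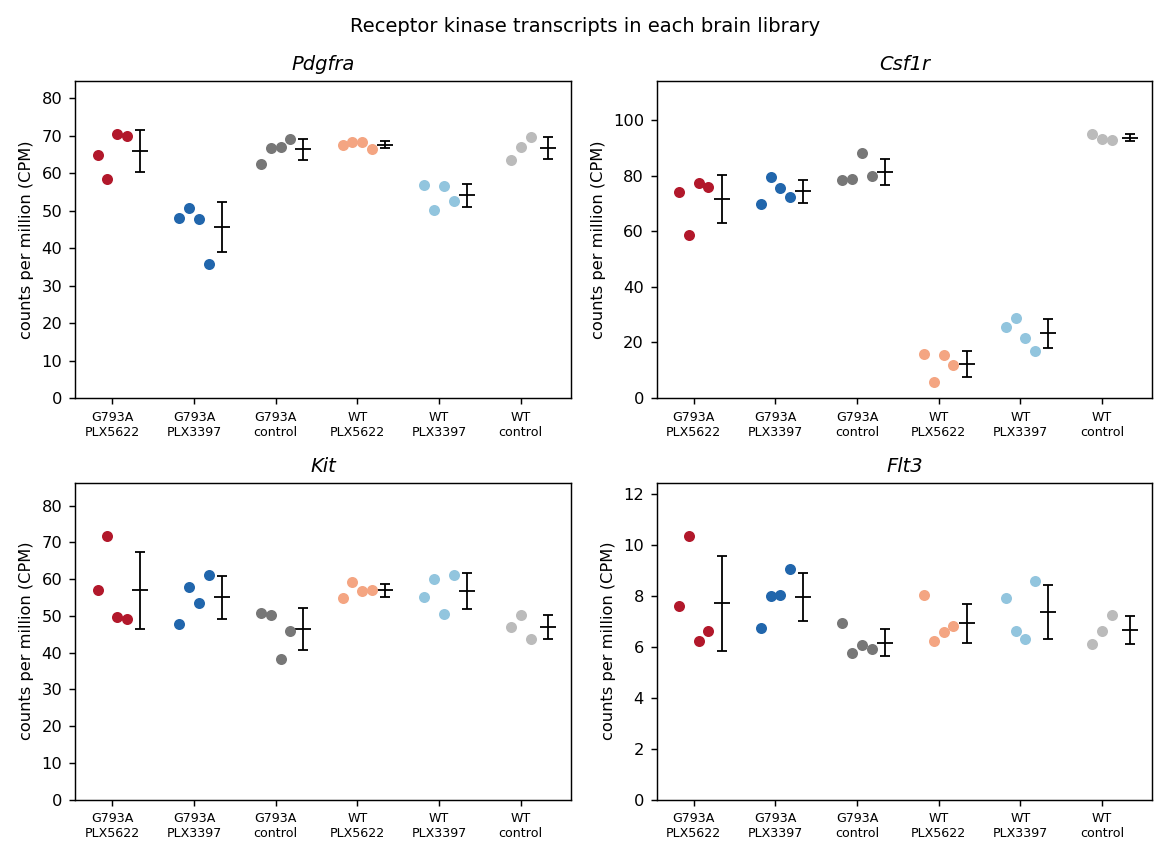
Transcript levels in CPM of the receptor kinase genes Pdgfra, Csf1r, Kit and Flt3 in each library (points) of the 6 groups along the horizontal axis, with the mean and SD of each group as a bar. Pdgfra lies between 58.4 and 70.5 CPM in G793A mice on PLX5622 and between 35.9 and 50.7 CPM in G793A mice on PLX3397, while the ranges of the other 3 genes overlap between these groups.

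The call on Pdgfra depended on the spread being estimated over all 6 groups and on single libraries. With the 8 compared libraries alone the log2 fold change was 0.53 and the adjusted p was 0.715, and with the G793A libraries alone the adjusted p was 0.714. Without replicate 3 or replicate 4 of G793A PLX5622 the adjusted p was 0.0833 and 0.0856, at log2 fold changes of 0.49 and 0.50. The longest annotated Pdgfra transcript has 6834 bases, against a median of 3398 over the genes tested. Across genes, which are not independent replicates, the deviations of a library from the mean of all libraries correlated with transcript length at 0.24, 0.02, −0.05 and 0.10 (Spearman's rho) in the G793A PLX5622 libraries and at −0.20, −0.30, −0.11 and 0.09 in the G793A PLX3397 libraries. After a smooth trend along length and GC content was removed from each library, the log2 fold change was 0.49 and the adjusted p was 0.0727. With the 3 libraries of high Npas4 left out it was 0.51 (adjusted p = 0.00221).

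Genes of oligodendrocyte precursors were looked at as a list of 13, Pdgfra among them. Of these, 12 had a positive log2 fold change with PLX5622 over PLX3397 in G793A mice, against 49.7% of all genes tested, and their median was 0.17 against −0.000878 over all genes. At an unadjusted p under 0.05, 4 of the 13 were higher with PLX5622, against 3.23% of all genes, and 0 were lower. Pdgfra was the member that passed after adjustment. Of the 12 members other than Pdgfra, 11 were positive, 3 were higher at an unadjusted p under 0.05, and the median was 0.16. In bulk tissue, fewer cells of a type and less RNA per cell cannot be told apart. The summed level of the list was 881 to 962 CPM with PLX5622, 771 to 892 CPM with PLX3397 and 848 to 941 CPM in G793A controls, so all ranges overlapped.

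Among the members, Neu4, a sialidase gene of the lineage, was at 8.52, 7.23, 7.86 and 8.19 CPM in G793A PLX5622 libraries and at 6.61, 7.37, 5.55 and 3.01 CPM in G793A PLX3397 libraries. Its groups overlapped, the lowest value was PLX3397 replicate 4, and its log2 fold change of 0.48 ± 0.16 did not pass. C1ql1, a secreted C1q-like protein gene, was at 0.29 ± 0.13, and Matn4, which encodes a matrix protein, was at 0.25 ± 0.12; neither passed. The proteoglycan gene Cspg4, which encodes the precursor marker NG2, was at 0.17 ± 0.09. Gpr17, a receptor gene of differentiating precursors, was at 0.18 ± 0.14. The most abundant members by CPM were the receptor phosphatase gene Ptprz1 (0.12 ± 0.09) and the matrix glycoprotein gene Tnr (0.12 ± 0.07). The transcription factor genes that mark the whole oligodendrocyte lineage lay closer to 0. Olig1 was at 0.06 ± 0.07, Olig2 at 0.13 ± 0.14 and Sox10 at −0.03 ± 0.07.

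The other comparisons give the list side by side. Its median was −0.02 in G793A PLX5622 against G793A controls and −0.19 in G793A PLX3397 against the same controls. Against controls, 7 of 13 were lower with PLX3397 at an unadjusted p under 0.05, or 6 of 12 without Pdgfra, against 5.7% of all genes. In WT mice the median of PLX5622 over PLX3397 was 0.19, with 5 of 13 higher at an unadjusted p under 0.05, or 4 of 12 without Pdgfra, against 1.71% of all genes. There Neu4 was at 0.46, Matn4 at 0.40 and C1ql1 at 0.32. The difference of differences had a median of 0.00 over the list, and 0 of 13 reached an unadjusted p under 0.05. With the 8 compared libraries alone, 2 of 13 members were higher in G793A PLX5622 at that level, against 3.28% of all genes. With the high-Npas4 libraries left out 4 were, against 1.46%.

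Genes of later stages of the lineage did not pass. Of 11 genes of committed precursors 10 were tested, Tmem2 being the one that was not. Their median was 0.07, with 9 positive, against 49.7% of all genes. At an unadjusted p under 0.05, 1 was higher, Neu4, against 3.23% of all genes. With the 8 compared libraries alone 0 were, against 3.28%. Bcas1, an early myelinating cell gene, was at 0.07 ± 0.12, and the kinase gene Fyn was at 0.01 ± 0.04. Enpp6, a gene of newly formed oligodendrocytes, was at 0.00 ± 0.11. The 13 myelin genes had a median of −0.16, with 11 negative, whereas 49.7% of all genes were positive. At an unadjusted p under 0.05, 2 were lower with PLX5622, against 3.62% of all genes. These were Mal (−0.28 ± 0.11) and Mobp (−0.44 ± 0.19), which encode myelin membrane and structural proteins, and neither passed. Mobp was at 109, 95.6, 93.6 and 98.2 CPM with PLX5622 and at 127, 108, 101 and 206 CPM with PLX3397, where replicate 4, also lowest for Pdgfra and Neu4, was the highest. Mbp, which encodes a main myelin protein, was at −0.04 ± 0.12 and did not pass. Without replicate 2 of G793A PLX5622, or with the high-Npas4 libraries left out, 0 myelin genes reached an unadjusted p under 0.05. In those fits 2.61% and 1.74% of all genes were lower at that level.

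**Figure D2:**
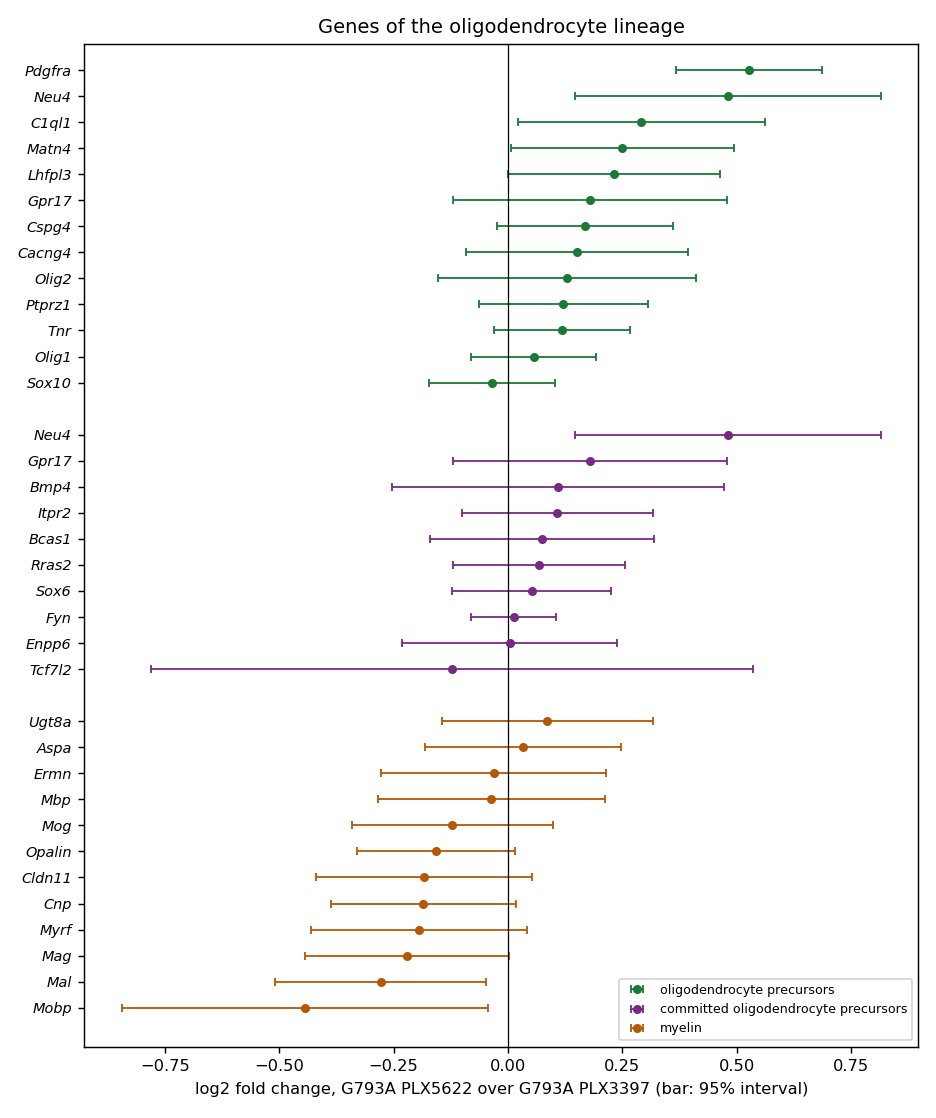
Log2 fold change of G793A PLX5622 over G793A PLX3397 (horizontal axis) with its 95% interval for genes of oligodendrocyte precursors, committed precursors and myelin, ordered by value within a list. Pdgfra, at 0.53 with an interval of 0.37 to 0.69, is the top gene of the precursor list, whose median is 0.17, and the myelin genes have a median of −0.16.

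Transcripts of the inhibitors' intended target and of the related kinases were compared next. Csf1r was at 74.2, 58.8, 77.3 and 76.0 CPM in G793A PLX5622 libraries and at 69.9, 79.7, 75.7 and 72.5 CPM in G793A PLX3397 libraries. The ranges overlapped, and the lowest value was the library with cerebellar transcripts. The log2 fold change was −0.06 ± 0.18 (95% interval −0.43 to 0.32), an interval that holds differences in both directions. In G793A controls Csf1r ran from 78.5 to 88.4 CPM. Counts per gene do not show the substitution itself.

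Kit was at 57.0, 71.9, 49.6 and 49.2 CPM in G793A PLX5622 libraries and at 47.8, 57.9, 53.4 and 61.1 CPM in G793A PLX3397 libraries, with a log2 fold change of 0.05 (95% interval −0.17 to 0.27). Its highest value was again the library with cerebellar transcripts. Flt3, best known as a receptor gene of haematopoietic progenitors, was at −0.04 (−0.32 to 0.24). Pdgfrb, the sister receptor gene found in pericytes, was at −0.01 (−0.19 to 0.17). Kit and Flt3 both had group means above the G793A controls with either inhibitor, 56.9 and 55.0 CPM for Kit with PLX5622 and PLX3397 against 46.4 CPM in controls, and none of these differences passed.

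Ligand genes did not pass either. Csf1 was at −0.04 (95% interval −0.18 to 0.10) and Il34, the main CSF1R ligand made by neurons, at −0.11 (−0.26 to 0.05). Of the 6 ligand genes of KIT, FLT3 and the PDGF receptors, 0 reached an unadjusted p under 0.05 and the median was −0.01. Kitl, which encodes stem cell factor, was at 0.18 ± 0.09. Pdgfa, the ligand gene for PDGFRA, was at 29.9 to 31.1 CPM with PLX5622 and 29.5 to 31.2 CPM with PLX3397, a log2 fold change of 0.00 ± 0.06. Flt3l was at −0.28 ± 0.18.

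Microglial transcripts were close between the inhibitors in G793A mice. The summed level of 16 homeostatic microglia genes was 347 to 431 CPM with PLX5622, 368 to 441 CPM with PLX3397 and 404 to 515 CPM in G793A controls. As a share of the mean of WT controls, the group means were 81.3% with PLX5622, 81.7% with PLX3397 and 93.0% in G793A controls. In WT mice the same sums were 24.8% of WT controls with PLX5622 and 33.9% with PLX3397.

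Of the 16 genes, 0 reached an unadjusted p under 0.05 between the inhibitors in G793A mice, and their median log2 fold change was −0.05, with a range of −0.21 to 0.23. Trem2, a lipid-sensing receptor gene, was at −0.21 ± 0.17. P2ry12, a purinergic receptor gene, was at 26.7, 25.8, 32.7 and 25.7 CPM with PLX5622 and at 21.6, 28.2, 27.7 and 20.4 CPM with PLX3397, with overlap and a log2 fold change of 0.18 ± 0.16. The fractalkine receptor gene Cx3cr1 was at −0.01 ± 0.18 and Tmem119 at −0.11 ± 0.18. The median of the list turned to 0.01 without replicate 2 of G793A PLX5622 and to 0.09 with the high-Npas4 libraries left out, with 0 members at an unadjusted p under 0.05 in both. Against G793A controls, the medians were −0.24 with PLX5622 and −0.20 with PLX3397. All 16 were negative with PLX5622 and 15 of 16 with PLX3397, where the medians over all genes were −0.00037 and 0.00303. At an unadjusted p under 0.05, 2 of 16 were lower with PLX5622, against 7.85% of all genes, and 2 of 16 with PLX3397, against 5.7%.

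The same genes differed between the inhibitors in WT mice at the unadjusted level. There the median of PLX5622 over PLX3397 was −0.78, all 16 were negative, whereas 49.6% of all genes were positive, and 12 were lower at an unadjusted p under 0.05, against 2.39% of all genes, though 0 passed after adjustment. The difference of differences, G793A minus WT, had a median of 0.69 over the list, and 15 of 16 were positive, against 51.2% of all genes. Of the 16, 10 were higher at an unadjusted p under 0.05, against 1.64% of all genes, and 0 passed after adjustment. For Csf1r it was 0.87 (95% interval 0.30 to 1.43), for P2ry12 1.05 and for Cx3cr1 1.09. Lag3, an immune checkpoint receptor gene that microglia also express, was at −0.10 ± 0.18 in G793A mice and −1.29 ± 0.22 in WT mice, a difference of 1.20 (0.61 to 1.78), and was among the 5 genes of smallest p for this test.

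**Figure D3:**
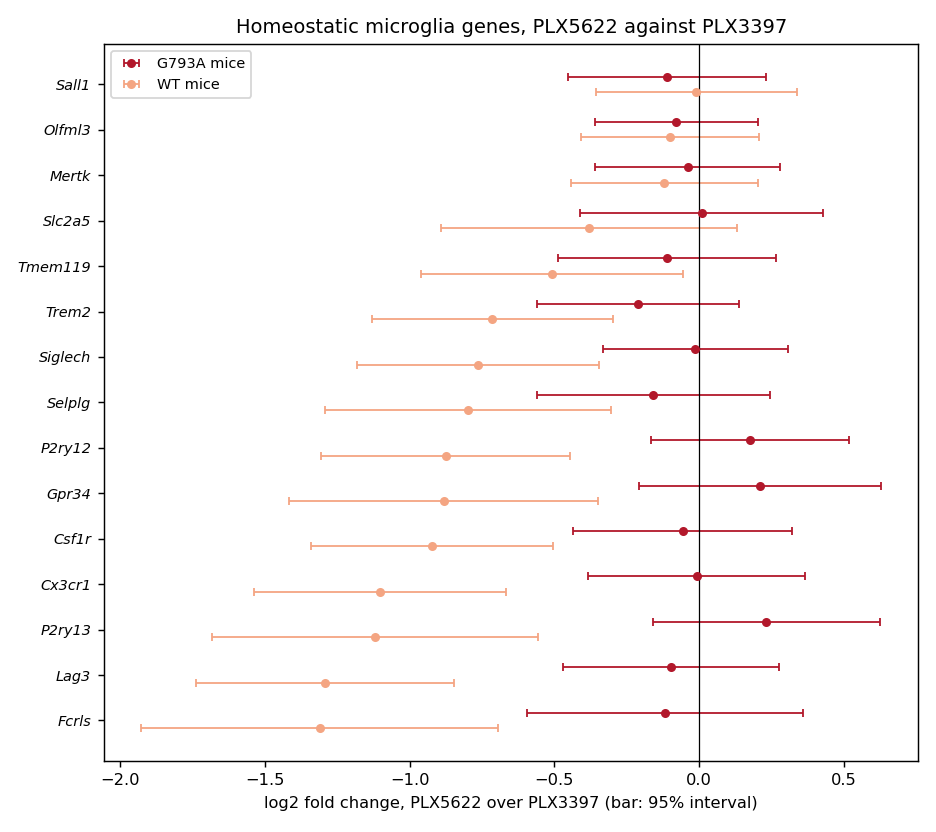
Log2 fold change of PLX5622 over PLX3397 with its 95% interval for homeostatic microglia genes, in G793A mice (dark red) and in WT mice (light orange), ordered by the value in WT mice. The G793A values lie between −0.21 and 0.23, and the whole list of 16 has a median of −0.05 in G793A mice and −0.78 in WT mice.

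The remaining genes of smallest p for the difference of differences were Cd28, Plcxd1, Trib2 and the pseudogene Lamtor3-ps. Trib2, a pseudokinase gene, was at 0.15 in G793A mice and −0.21 in WT mice. Lamtor3-ps was at 0.26 to 0.55 CPM in G793A PLX5622 libraries and 0.19 to 0.54 CPM in G793A PLX3397 libraries, and its reads can be shared with its parent gene, so it is uncertain. Over all genes 0 passed this test in edgeR and 0 in limma-voom, and 3.7% reached an unadjusted p under 0.05. DESeq2 called 2, the microglia genes Lag3 (1.20) and P2ry13 (1.36, adjusted p = 0.00734), both of the list above.

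Macrophages and other myeloid cells gave a like picture. The 16 pan-myeloid genes had a median of −0.05 (0.03 with the high-Npas4 libraries left out) between the inhibitors in G793A mice. Of these, 0 were at an unadjusted p under 0.05. With the 8 compared libraries alone 1 was higher and 3 were lower, against 3.28% and 3.64% of all genes. They summed to 201 to 235 CPM with PLX5622 and 221 to 250 CPM with PLX3397, against 245 to 332 CPM in G793A controls. Ctss, a lysosomal protease gene, was at 0.04 ± 0.18, and the complement gene C1qb was at −0.18 ± 0.20. Ptprc, which encodes the pan-leukocyte protein CD45, was at 0.39 ± 0.20. The 12 genes of border-associated macrophages, which line the meninges and vessels, had a median of 0.21 with 0 at an unadjusted p under 0.05. They summed to 18.4 to 22.7 CPM with PLX5622 and 18.7 to 21.2 CPM with PLX3397. Both lay below the 23.6 to 28.2 CPM of G793A controls without overlap, and how often sums of other gene sets separate so was not tested. Against these controls, 1 of 12 was lower with PLX5622 at an unadjusted p under 0.05, against 7.85% of all genes. With PLX3397, 4 of 12 were, against 5.7%, and 0 passed with either. Between the inhibitors the scavenger receptor gene Stab1 was at −0.07 ± 0.11, the mannose receptor gene Mrc1 at 0.18 ± 0.22 and F13a1, a transglutaminase gene, at 0.45 ± 0.28.

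Genes of activated microglia did not pass. Of 14 genes of the disease-associated state 13 were tested, Cst7 being left out by the low-count filter, and their median was −0.02. Apoe, also an astrocyte gene, was at −0.02 ± 0.09 and the cathepsin gene Ctsb at −0.03 ± 0.04. Ctsd, another cathepsin gene, was the one at an unadjusted p under 0.05 (−0.14 ± 0.05), where 3.62% of all genes were lower. It was at 338, 317, 326 and 350 CPM with PLX5622 and at 368, 366, 356 and 379 CPM with PLX3397, without overlap, as 2.13% of all genes did not overlap in this direction. With the length and GC trend removed, or with the high-Npas4 libraries left out, 0 of the 13 reached an unadjusted p under 0.05. Of all genes, 2.83% and 1.74% were lower at that level in those fits.

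Antigen presentation genes had a median of 0.00 over 13 members, with 0 at an unadjusted p under 0.05. B2m, the light chain of MHC class I, was at 0.13 ± 0.10 and H2-D1 at 0.14 ± 0.13. Psmb9, an immunoproteasome subunit gene, was at −0.73 ± 0.36 and at or below 1.74 CPM in all 8 libraries. Of 17 interferon-stimulated genes 15 were positive, against 49.7% of all genes, and their median was 0.14. With PLX5622, 3 were higher at an unadjusted p under 0.05, against 3.23% of all genes. These were Ifi44 (0.73 ± 0.27), Oasl2 (0.64 ± 0.28) and Ddx58 (0.25 ± 0.12), and none passed. Ifi44 was at 0.759, 1.47, 2.10 and 0.992 CPM with PLX5622 and at 0.566, 0.696, 0.775 and 1.18 CPM with PLX3397, while G793A controls ran from 1.05 to 1.64 CPM. The more abundant member Ifi27 was at 0.10 ± 0.10. With the 8 compared libraries alone, or without replicate 2 of G793A PLX5622, 1 of 17 was higher at an unadjusted p under 0.05. Of all genes, 3.28% and 2.07% were higher in those fits.

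Beyond Pdgfra, the 10 genes of smallest p included 9 that did not pass, all at an adjusted p of 0.657. Higher with PLX5622 were Npbwr1, a neuropeptide receptor gene (0.63 ± 0.14), and Cd28, the T cell costimulatory receptor gene (1.52 ± 0.37). Npbwr1 was at 2.84, 2.30, 2.31 and 1.98 CPM with PLX5622 and at 1.75, 1.41, 1.33 and 1.64 CPM with PLX3397, with G793A controls between 1.87 and 2.41 CPM. Cd28 was at 0.636, 1.15, 0.517 and 0.595 CPM with PLX5622 and at 0.162, 0.185, 0.412 and 0.229 CPM with PLX3397. For both genes the PLX5622 libraries all lay above the PLX3397 libraries, as was so for 2.01% of all genes. Both were picked for their small p, which favours such separation. In WT mice Cd28 was at −0.78 and the difference between genotypes was 2.30 (95% interval 1.21 to 3.39), which did not pass.

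The other 7 were lower with PLX5622. Pkmyt1, a kinase gene that restrains entry into mitosis, was at 4.36, 3.90, 4.45 and 4.02 CPM with PLX5622 and at 5.83, 5.98, 5.21 and 6.21 CPM with PLX3397, a log2 fold change of −0.47 ± 0.10. Inha, which encodes the inhibin alpha subunit, was at −0.64 ± 0.16. Cish, a feedback inhibitor gene of cytokine signalling, was at −0.46 ± 0.12. It was at 6.34, 4.70, 5.48 and 5.87 CPM with PLX5622, at 8.44, 6.82, 7.05 and 8.57 CPM with PLX3397 and at 4.92 to 6.65 CPM in G793A controls. The transcription factor genes E4f1 and Zbtb17 were at −0.46 ± 0.11 and −0.27 ± 0.07. For Plcxd1 the value was −0.44 ± 0.11 in G793A mice and 0.19 in WT mice. The pseudogene Gm6802, listed at 0 in 1 G793A PLX5622 library and at or below 0.419 CPM in all 8, is uncertain because its reads can be shared with its parent gene.

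Lists of activity and stress genes changed in median when the 3 libraries of high Npas4 were left out. All 14 immediate early genes were negative with PLX5622, whereas 49.7% of all genes were positive. Their median was −0.66, and 0 reached an unadjusted p under 0.05. Fos, a transcription factor gene induced by neuronal activity, was at 53.8, 122, 27.8 and 60.8 CPM with PLX5622 and at 38.4, 287, 54.6 and 369 CPM with PLX3397. Only the PLX3397 libraries of high Npas4, replicates 2 and 4, exceeded the PLX5622 range for Fos, and the same held for Egr1, at 487 and 657 CPM. With the 3 libraries left out the median of the list was −0.08, and 8 of 14 were negative. Without replicate 2 of G793A PLX5622 alone the median was −0.71 and 3 of 14 were lower at an unadjusted p under 0.05, against 2.61% of all genes in that fit. Arc was at −0.58 ± 0.40.

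Glucocorticoid-induced genes had a median of −0.35, and 6 of 13 were lower with PLX5622 at an unadjusted p under 0.05, against 3.62% of all genes. Nfkbia, an inhibitor gene of NF-kappa-B, was at 19.95, 15.12, 14.97 and 17.46 CPM with PLX5622 and at 30.88, 25.88, 20.09 and 29.99 CPM with PLX3397. Its groups did not overlap, as was so for 2.13% of all genes in this direction. The log2 fold change of Nfkbia was −0.66 ± 0.19 and did not pass. Sgk1, a kinase gene, was at −0.89 ± 0.34, Klf9 at 0.01 ± 0.08 and the metallothionein gene Mt1 at −0.25 ± 0.17. The glucocorticoid list summed to 986.8, 838.9, 728 and 1144 CPM in G793A PLX3397 replicates 1 to 4. Replicates 2 and 4 were those of high Npas4, and replicate 1 lay above replicate 2. In G793A PLX5622 it summed to 811.9, 712, 764.9 and 736.3 CPM, where replicate 2 was that of high Npas4. With the high-Npas4 libraries left out the median was −0.16. There 1 of 13 was lower at an unadjusted p under 0.05, against 1.74% of all genes in that fit. Heat shock and unfolded protein response genes had a median of −0.12 with 4 of 15 lower at an unadjusted p under 0.05, against 3.62% of all genes, among them Hspa1a (−0.86 ± 0.26), and 0 of 15 with those libraries left out. Hspa1a was at 9.66 to 13.1 CPM with PLX5622 and at 13.9, 29.7, 11.3 and 29.0 CPM with PLX3397. The chaperone genes Hsp90aa1 and Hsph1 were each at 0.01 ± 0.06. The part of the high-Npas4 libraries in these values was not tested beyond leaving them out.

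Clock genes had a median of −0.06. At an unadjusted p under 0.05, 2 of 16 were higher, against 3.23% of all genes, and 3 were lower, against 3.62%. With the high-Npas4 libraries left out 0 reached that level and the median was 0.03. That fit had 1.46% of all genes higher and 1.74% lower at that level. Cry2, a repressor gene of the clock, was at 127, 119, 122 and 125 CPM with PLX5622 and at 132, 140, 137 and 150 CPM with PLX3397 (−0.18 ± 0.05). Its groups did not overlap, as was so for 2.13% of all genes in this direction. The output genes Tef (−0.05 ± 0.06) and Hlf (−0.06 ± 0.07) did not pass.

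Metabolic lists had small medians, but most genes of 2 lists were negative with PLX5622, whereas 49.7% of all genes were positive. Negative were 17 of 20 cholesterol synthesis genes and 10 of the 13 tested genes of the response to foreign compounds. With the high-Npas4 libraries left out these were 17 of 20 and 8 of 13. Of 20 cholesterol synthesis genes 4 were lower with PLX5622 at an unadjusted p under 0.05, against 3.62% of all genes, with a median of −0.06. With the 8 compared libraries alone 2 were lower. It was 1 with the length and GC trend removed, without replicate 2 of G793A PLX5622 or with the high-Npas4 libraries left out. Over those fits 1.74% to 3.64% of all genes were lower at that level. Fdft1, which encodes squalene synthase, was at −0.13 ± 0.04 and Hmgcs1 at −0.03 ± 0.05. Of 16 genes of the response to foreign compounds 13 were tested, without Cyp1a1, Cyp2c29 and Cyp2b10, and their median was −0.12. Por, the electron donor gene of cytochrome P450 enzymes, was lower at an unadjusted p under 0.05 (−0.17 ± 0.07), as were 3.62% of all genes. Gstm1, a glutathione transferase gene, was at −0.13 ± 0.11. The 12 proliferation genes had a median of 0.05, with Top2a (0.54 ± 0.21) and Cenpf (0.51 ± 0.20), genes of dividing cells, higher at an unadjusted p under 0.05, against 3.23% of all genes. With the high-Npas4 libraries left out 0 of 12 reached that level, against 1.46% of all genes in that fit. Pcna (−0.03 ± 0.05) and Mcm5 (−0.05 ± 0.10), which act in DNA replication, were not.

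Other cell types of the brain showed no gene that passed apart from Pdgfra itself, which is also a fibroblast gene. The 13 astrocyte genes had a median of 0.05, with Slc1a2, a glutamate transporter gene, at 0.13 ± 0.13, Aldoc at −0.06 ± 0.13 and the water channel gene Aqp4 at 0.24 ± 0.12. The 12 endothelial genes had a median of −0.09, with 11 negative, whereas 49.7% of all genes were positive. At an unadjusted p under 0.05, 2 were lower, against 3.62% of all genes. These were the glucose transporter gene Slc2a1 (−0.30 ± 0.11) and Vwf (−0.46 ± 0.17). With the high-Npas4 libraries left out the median turned to 0.08, with 9 of 12 positive. There 0 were lower at that level, against 1.74% of all genes in that fit. Flt1, the other abundant member, was at −0.10 ± 0.09. Pericyte and smooth muscle genes had a median of −0.10, or 0.06 with those libraries left out, with Rgs5 at 0.10 ± 0.08 and Vtn at −0.19 ± 0.10. The 9 fibroblast genes, Pdgfra among them, had a median of 0.30, with 6 positive, against 49.7% of all genes. At an unadjusted p under 0.05, 2 were higher, Pdgfra among them, against 3.23% of all genes. In PLX3397 against G793A controls the median was −0.14 and all 9 were negative. There 2 were lower at that level, against 5.7%. In WT mice the median between the inhibitors was 0.07, with 1 higher and 3 lower, against 1.71% and 2.39%. Igf2 was at −0.13 ± 0.12 between the inhibitors in G793A mice. Col1a1 was at 58.8 CPM in G793A PLX5622 replicate 3 and between 9.33 and 15.2 CPM in the other 7 libraries. The 5 red blood cell genes had a median of 0.33 with 0 at an unadjusted p under 0.05, and Hbb-bs ran from 50.5 to 106 CPM with PLX5622 and from 28.6 to 91.7 CPM with PLX3397. Hba-a2 was at 0.30 ± 0.48 and shares reads with its copy Hba-a1.

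Neuronal lists had medians near 0 in the fit of all libraries. Excitatory genes had a median of −0.02, with Camk2a at −0.11 ± 0.12 and the vesicular glutamate transporter gene Slc17a7 at −0.02 ± 0.10. Inhibitory genes had a median of −0.04, with Gad1 at −0.06 ± 0.09, Gad2 at 0.03 ± 0.11 and Sst at −0.20 ± 0.11. With the high-Npas4 libraries left out the excitatory median turned to 0.11, with 8 of 9 positive and 2 higher at an unadjusted p under 0.05, against 1.46% of all genes in that fit. Striatal genes had a median of 0.03, or −0.05 with those libraries left out, with Ppp1r1b at −0.05 ± 0.17 and Pde10a at 0.19 ± 0.22.

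Genes of the cerebellum, choroid plexus and pituitary differed between libraries, and the cause was not tested. Of 9 cerebellar genes 8 were tested, without Gabra6, and their median of 1.10 was −0.10 without replicate 2 of G793A PLX5622. Calb1 was at 272 CPM in that library and 102 to 148 CPM in the other 7, and Zic1 at 190 CPM against 31.5 to 75.3 CPM. Choroid plexus genes summed to 249 to 433 CPM with PLX5622 and 304 to 714 CPM with PLX3397, against 254 to 1180 CPM in G793A controls. All 8 were negative, with a median of −0.63, whereas 49.7% of all genes were positive. At an unadjusted p under 0.05, 1 was lower, against 3.62% of all genes. With the 8 compared libraries alone 5 were, against 3.64%. With the high-Npas4 libraries left out the median was −0.83 and 3 were lower, against 1.74% of all genes in that fit. In WT mice all 8 were positive, with a median of 0.35, whereas 49.6% of all genes were positive. The difference of differences had a median of −0.97, with 6 of 8 lower at an unadjusted p under 0.05. Of all genes 3.7% reached that level in either direction, and 0 passed. Ttr, the thyroid hormone carrier gene, was at 205.5, 337.7, 376.5 and 205.2 CPM with PLX5622 and at 627.3, 256.8, 581.9 and 564.8 CPM with PLX3397, and Kl was at −0.62 ± 0.32 and Folr1 at −0.91 ± 0.38. Pituitary genes, of which 6 of 7 were tested without Fshb, summed to 2.28 to 8.53 CPM with PLX5622 and 2.86 to 10.5 CPM with PLX3397. Cga was listed at 0 in all G793A PLX5622 libraries and at 1.16 CPM in G793A PLX3397 replicate 1, Pomc was at −0.10 ± 0.63 and Tshb at 0.32 ± 0.20.

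**Figure D4:**
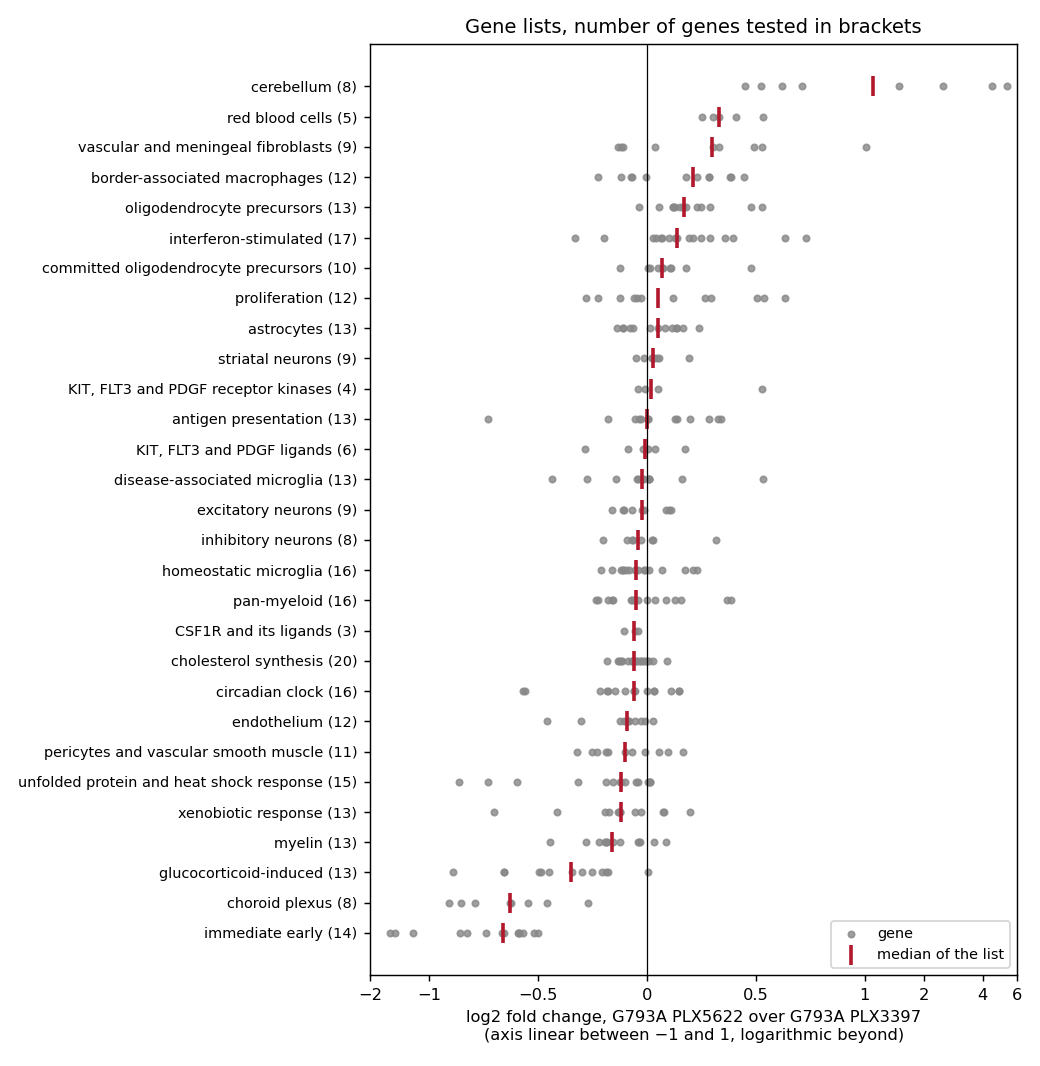
Log2 fold change of G793A PLX5622 over G793A PLX3397 for each tested gene (grey points) and the median (red mark) of the gene lists, sorted by median; the axis is linear between −1 and 1 and logarithmic beyond. The homeostatic microglia, CSF1R and neuronal lists lie near 0, and the cerebellar list has its median at 1.10 through 1 library. The pituitary list is not drawn.

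Set against controls of the same genotype, 0 genes passed in edgeR with PLX5622, where 16.3% were at an unadjusted p under 0.05, and 0 passed in limma-voom, against 313 in DESeq2. Without replicate 2 of the G793A controls edgeR called 980. With PLX3397 the numbers were 1 gene, 11.7%, 1 and 28, and 23 without that control library. Between the inhibitors in WT mice 0 genes passed in edgeR and 0 in limma-voom, against 14 in DESeq2, 4.1% were at an unadjusted p under 0.05, and 7 passed without WT PLX5622 replicate 1, among them Cx3cr1, P2ry12, Fcrls, Selplg and Lag3.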

How the data were processed

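Per the labels' protocols, poly(A) RNA was captured with oligo-dT beads for a stranded kit and sequenced on a NovaSeq instrument. The submitters' processing notes name the build GRCm39 and the tools kallisto 0.46.1, FastQC 0.11.9 and DESeq2 1.26.0. How transcripts were joined into genes is not given there. The authors deposited estimated counts for 22310 gene symbols (45.3% of values not whole; 1 blank entry, at most 0.0151% of a library, was left out). The authors also deposited variance-stabilised log2 values for 15577 entries, used only as an alternative.

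Rounded counts went into edgeR 4.0.16 under R 4.3.3 (filterByExpr with minimum count 10 and minimum total 15, TMM scaling, robust quasi-likelihood fit, 1 term per group, all 23 libraries), two-sided, with Benjamini-Hochberg adjustment over all 16209 genes tested and a threshold of 0.05. Adjusted p-values are from edgeR unless a sentence names another tool. The biological coefficient of variation common to all genes was 0.0998. CPM use the TMM library sizes, and the SE is the log2 fold change divided by the root of F. Transcript lengths came from GENCODE on another build, matched by symbol for 99.4% of genes tested, so no coordinates are given. The test was also run on simulated counts. These were drawn independently from group means, without length trends or outlying libraries, so they do not bear on the call of Pdgfra.

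The 30 gene lists (335 genes), the members named by rule and the comparisons were chosen with earlier results of these data known. The rule named 7 receptor and ligand genes, the 10 genes of smallest p, the 5 of smallest p for the difference between genotypes, and, per list, the 2 most abundant members and that of smallest p. Some genes of that rule are not reported here by name or drawn on their own; they count in the lists. Other genes named were chosen after their values were seen. Alternatives were RLE scaling, other filters, DESeq2 1.42.0, a fit without robust dispersion, limma-voom (limma 3.58.1), limma on the variance-stabilised values, a replicate block, fewer groups, removal of a length and GC trend, and leaving out libraries. Leaving out the high-Npas4 libraries was chosen after seeing the data. Pairs of libraries within a group gave chi-square values per degree of freedom of 5.93 to 31.1, above counting noise, so none was taken for a repeat deposit.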

Additional observations from a re-analysis of the deposited data

Results flagged for a closer look

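Within each group of 4 libraries, 20 of 249 sets of values (8.03%) held a library far from the rest by Dixon's 95% criterion. Chance flags about 1 in 20 where values are normal. The sets share libraries, and sums hold genes that were also tested singly, so they are not independent. The share flagged therefore cannot show an excess over chance. In G793A PLX5622, replicate 2 was apart for Cbln3 (220.5 CPM), Calb1 (271.6 CPM) and the summed cerebellar genes (1025 CPM), all high, and for Csf1r (58.83 CPM) and the sum of Csf1r, Csf1 and Il34 (118.6 CPM), both low. Replicate 3 of that group was high for Slc1a2 (5194 CPM) and the astrocyte sum (7869 CPM) and low for Egr1 (194.8 CPM). Replicate 4 was low for Pcna (41.43 CPM).

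In G793A PLX3397, replicate 1 was high for Tnr (228.5 CPM), Pomc (6.337 CPM) and Cga (1.16 CPM) and low for E4f1 (9.951 CPM) and Tef (312.5 CPM). Replicate 2 was low for Ttr (256.8 CPM), Folr1 (2.829 CPM) and the choroid plexus sum (304.1 CPM) and high for the pan-myeloid sum (249.7 CPM). Replicate 3 was low for Rgs5 (64.86 CPM) and high for Gad1 (620.8 CPM). The cause of these values was not tested.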

How the results depend on the processing

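Pdgfra kept its direction in G793A PLX5622 against G793A PLX3397 under all 20 alternatives. It did not pass with the compared groups alone (0.5256), with the G793A libraries alone (0.5267) or with the length and GC trend removed (0.4897), and leaving out 1 library at a time gave 0.4299 to 0.5805, not passing without PLX5622 replicate 3 or 4. Genes called in this comparison were 2 in DESeq2 (the other was Gm45837, lower), 0 with the compared groups alone, 0 with the G793A libraries alone, 0 with the trend removed and 0 to 1 with 1 library left out. Against G793A controls, PLX5622 gave 313 in DESeq2 and 0 to 980 with 1 library left out. PLX3397 gave 28 in DESeq2, 0 with the compared groups alone, 0 with the G793A libraries alone, 0 in limma on the variance-stabilised values and 0 to 23 with 1 library left out. PLX5622 against PLX3397 in WT mice gave 1 (Lag3) without a low-count filter, 14 in DESeq2, 1 (Lag3) with the trend removed and 0 to 7 with 1 library left out. The difference between genotypes gave 2 in DESeq2. The cause of these changes was not tested.

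Of the 93 genes named by rule, 56 kept their sign under every alternative and 37 did not, and 0 other than Pdgfra passed under any. Replicate numbers were not taken to pair the libraries. Same-numbered libraries of both inhibitor groups had residual correlations of −0.24 to 0.0594 over 4 pairs. Those of other numbers ran from −0.112 to 0.219 over 12 pairs, and so few pairs cannot exclude a weak pairing. With a replicate block Pdgfra was again the 1 gene called (adjusted p = 0.025).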
